A study of Danio rerio with 2 samples.

Results

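The genes described here are 10 endocrine pancreas genes of the zebrafish, found by symbol in the deposited table of 33733 genes. They comprise the hormone genes ins, insb, gcga, gcgb and sst2 and the transcription factor genes pdx1, isl1, pax6b, nkx2.2a and mnx1. They were chosen by their roles and with their FPKM in both libraries in view, in particular the opposite directions of ins and gcga, so their levels and differences are a description and no test was run on them. The study set larvae homozygous for the lri25 mutation against wild-type larvae of the same clutches at 5 days post fertilisation (dpf). Each genotype is 1 library of total RNA from 20 pooled whole larvae of the AB/TL strain. Which gene lri25 disrupts is not stated in the labels, no other allele or agent is listed, and no library of single larvae or of dissected pancreas was analysed.

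The endocrine pancreas of the zebrafish is a set of islets, as in mammals. Beta cells make insulin, which lowers blood glucose, alpha cells make glucagon, which raises it, and delta cells make somatostatin, which restrains both. The islet transcription factors place endocrine cells on these fates and keep their identity, and several of them also act in the brain, spinal cord, retina or gut. In a whole larva the islet is a very small part of the tissue, so fewer islet cells and less hormone RNA per cell cannot be told apart in these values.

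Levels are FPKM, fragments of a gene scaled by the length of its transcript and the size of the library, so levels of different genes can be set side by side. The difference between libraries is log2 of mutant FPKM plus 1 over wild-type FPKM plus 1, and a gene was called higher or lower where it reached 1. The comparison took in the 20256 genes that reached 1 FPKM in either library or both. With 1 library a genotype, no value has a replicate error, and every difference is one between these 2 pools. Fragment totals were not given, so the depth is unknown. Among single-gene loci of 2000 to 3000 bp the lowest level above 0 was 0.141 FPKM in the mutant and 0.154 FPKM in the wild type. Members near 1 FPKM therefore rest on few fragments.

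In this chosen set the hormone transcripts differed in makeup more than in sum. The set was chosen with the opposite directions of ins and gcga in view, so its shift in makeup is no independent result. Other islet hormone genes, such as sst1.1, are not in the sum. Summed over the 5 hormone genes, levels were 156 FPKM in the mutant library and 159 FPKM in the wild-type library. Of that sum ins held 43.7% in the mutant and 63.7% in the wild type, while gcga held 31.9% in the mutant and 15.4% in the wild type. The somatostatin gene sst2 held 14.6% in the mutant and 11.9% in the wild type, and gcgb held 9.72% in the mutant and 9.05% in the wild type. These shares compare genes within a library, so they do not depend on how the libraries were scaled to each other.

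**Figure D1:**
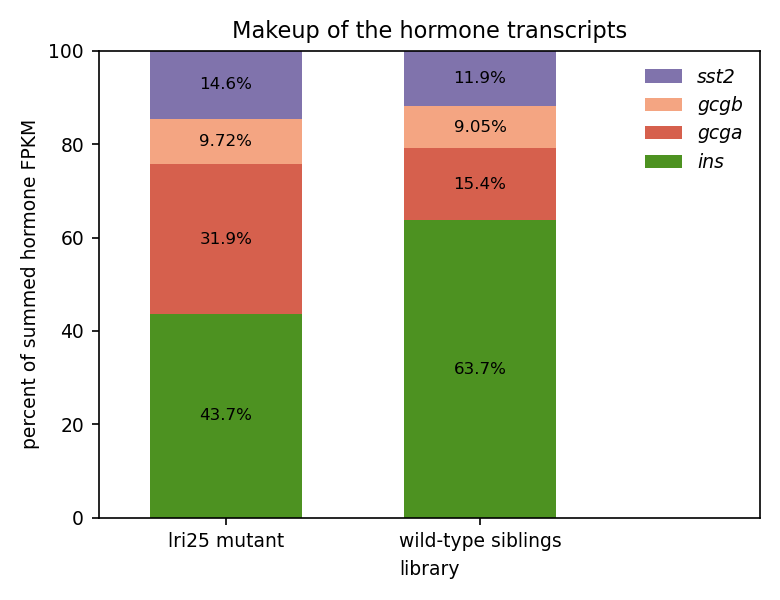
Share of each hormone gene in the summed FPKM of ins, gcga, gcgb and sst2 (y axis, percent) in the lri25 mutant library and the wild-type sibling library, 1 library each. The ins part is 43.7% in the mutant and 63.7% in the wild type, and the gcga part is 31.9% in the mutant and 15.4% in the wild type; insb is listed at 0 in both and is not drawn.

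The insulin gene ins (ENSDARG00000035350, build Zv9, chromosome 5, 39454959 to 39457905) was at 68.1 FPKM in the mutant library and 102 FPKM in the wild-type library. It had the highest level of the 10 genes in each library. The mutant level was 1.49-fold lower, a difference of -0.57, which is short of the call. Among the 1009 genes whose higher level was 100 FPKM or more, 11.6% had a difference at least as low. The second insulin gene insb (ENSDARG00000034610, chromosome 14, 29583203 to 29588274), a duplicate of ins, was listed at 0 in both libraries. A listed 0 can be a failed estimate, so no fold was computed for it.

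The glucagon gene gcga (ENSDARG00000079296, chromosome 22, 11725150 to 11736164) went the other way, at 49.8 FPKM in the mutant library and 24.5 FPKM in the wild-type library. The plain ratio was 2.03-fold and the difference 0.99, just under the call. With a pseudocount of 0.1 FPKM in place of 1 the difference was 1.02, just past it. Among the 3710 genes whose higher level lay between 20 and 100 FPKM, 4.66% had a difference at least as high. Like ins, gcga was chosen with its direction in view, so the share for each gene is a description and no test. Its locus in the table is shared with si:ch1073-467m9.2, which was listed at 0 in both libraries.

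The duplicate glucagon gene gcgb (ENSDARG00000040907, chromosome 9, 52494636 to 52623098) differed little, at 15.14 FPKM in the mutant and 14.42 FPKM in the wild type, a difference of 0.07. The ratio of gcga to gcgb was 3.29 in the mutant and 1.70 in the wild type. The gcgb level is less certain, because its locus is shared with fap, ifih1 and si:dkey-81j5.4 among which fragments may have been split. The protease gene fap was at 9.49 FPKM in the mutant and 15.14 FPKM in the wild type, and the viral RNA sensor ifih1 at 1.19 FPKM in the mutant and 0.327 FPKM in the wild type.

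Somatostatin gene sst2 (ENSDARG00000014190, chromosome 2, 5368743 to 5371566), a delta cell hormone of the zebrafish islet, was at 22.8 FPKM in the mutant and 18.9 FPKM in the wild type. Its difference was 0.26, and 31.3% of the 3710 genes of 20 to 100 FPKM were at least as high. The other gene at this locus, si:ch211-232h16.4, was at 0.857 FPKM in the mutant and 2.24 FPKM in the wild type. Of the 4 hormone genes above 0, ins alone was lower in the mutant, and 0 reached the call in either direction.

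Within a library, ins stood lower in the mutant relative to each of the other hormone genes above 0. The ratio of ins to gcga was 1.37 in the mutant library and 4.15 in the wild-type library, a 3.03-fold lower ratio in the mutant. The ratio of ins to sst2 was 2.99 in the mutant and 5.37 in the wild type, and that of ins to gcgb was 4.5 in the mutant and 7.04 in the wild type. Against the 2 glucagon genes summed, ins stood at a ratio of 1.05 in the mutant and 2.61 in the wild type. These ratios share ins, and the first rests on the pair of genes chosen for going apart.

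**Figure D2:**
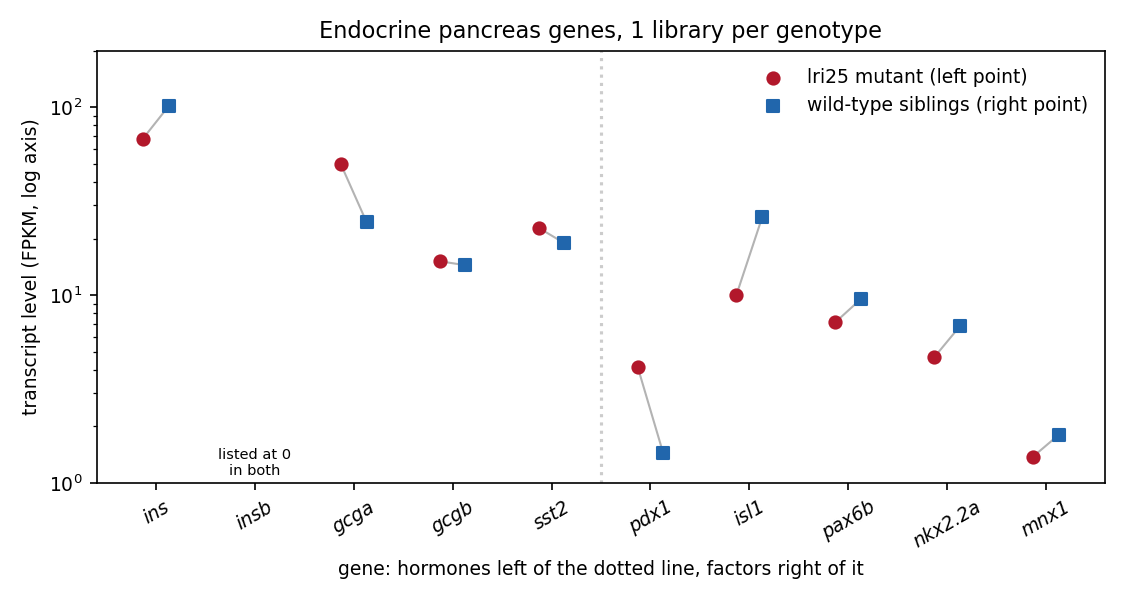
Level of each of the 10 genes (y axis, FPKM on a log axis) in the lri25 mutant library (red circle, left) and the wild-type sibling library (blue square, right), joined by a line, with hormones left of the dotted line and factors right of it. The lines of gcga and pdx1 run down to the wild type, those of ins and isl1 run up to it, and insb is listed at 0 in both libraries.

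Of the 5 transcription factor genes, 4 were lower in the mutant library and pdx1 was higher. Their summed level was 27.4 FPKM in the mutant and 45.6 FPKM in the wild type. Most of that gap was isl1 alone, at 10.04 FPKM in the mutant and 26.0 FPKM in the wild type. The 2 that reached the call were isl1, lower, and pdx1, higher. Over all 9 members past the floor, 1 was called higher and 1 lower. Of all genes compared, 6.08% were called higher and 7.12% lower, so the members' counts are near that background. Their median difference was -0.24, against -0.01 over all genes compared.

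The factor pdx1 (ENSDARG00000002779, chromosome 24, 22292137 to 22294654), which in zebrafish and mammals is needed for the pancreas and for insulin expression and is also expressed in the gut next to it, was at 4.16 FPKM in the mutant library and 1.43 FPKM in the wild-type library. The ratio was 2.90-fold and the difference 1.08. Both levels are low, and with a pseudocount of 5 FPKM the difference was 0.51. Among the 7498 genes whose higher level lay between 1 and 5 FPKM, 6.71% were at least as high. In that class 8.27% of genes were called higher and 9.62% lower. The ratio of ins to pdx1 was 16.4 in the mutant and 70.8 in the wild type, and rests on these low pdx1 levels. That of ins to isl1 went the other way, at 6.79 in the mutant and 3.91 in the wild type.

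The LIM homeodomain factor isl1 (ENSDARG00000004023, chromosome 5, 42353743 to 42359175), made in all endocrine cell types of the islet and in motor neurons, sensory neurons and retinal neurons, was at 10.04 FPKM in the mutant library and 26.0 FPKM in the wild-type library. It was 2.59-fold lower, with a difference of -1.29, and stood past the call under each of the 8 alternatives, between -1.36 and -1.04. The floors and leaving out shared loci could not alter this value, and no alternative stands in for a replicate. Among the 3710 genes of 20 to 100 FPKM, 3.10% were at least as low. In order of level it was the fifth member in the mutant library and the second in the wild type. Its relatives isl2a and isl2b, known from neurons, were at 9.37 and 4.15 FPKM in the mutant and at 12.0 and 7.38 FPKM in the wild type.

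The paired-box factor pax6b (ENSDARG00000045936, chromosome 7, 16636712 to 16662410), which acts in islet cells and also in the eye and brain, was at 7.17 FPKM in the mutant and 9.55 FPKM in the wild type. Its difference was -0.37, and 24.3% of the 8039 genes of 5 to 20 FPKM were at least as low. Its duplicate pax6a, known mainly from the eye and brain, was at 12.4 FPKM in the mutant and 28.9 FPKM in the wild type, a difference of -1.16, at a locus shared with a ribosomal RNA gene. The ratio of pax6b to pax6a was 0.578 in the mutant and 0.330 in the wild type.

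The homeobox factor nkx2.2a (ENSDARG00000053298, chromosome 17, 42929655 to 42937363), used in islet precursors and in the ventral neural tube, was at 4.67 FPKM in the mutant and 6.84 FPKM in the wild type. That is 1.47-fold lower, a difference of -0.47. The homeobox factor mnx1 (ENSDARG00000035984, chromosome 7, 42031015 to 42033352), which beta cell precursors and motor neurons both use, had the lowest nonzero level in the mutant library, at 1.38 FPKM, against 1.81 FPKM in the wild type. Its difference of -0.24 lies among those of low genes, of which 37.2% were at least as low. Its relatives mnx2a and mnx2b went in opposite directions at similar low levels: mnx2a was listed at 0 in the mutant and at 1.81 FPKM in the wild type, and mnx2b was at 1.77 FPKM in the mutant and listed at 0 in the wild type, at a locus shared with atic and fn1b.

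The authors' deposited table marks 8 of the 10 members as tested between the 2 libraries and 0 of them as significant. Of the 14613 genes it marks as tested, 0.465% are significant. The lowest member q-value in the authors' deposited table was 0.70 for isl1, and ins and gcga were both at 0.996. The authors' deposited table lists insb and mnx1 as not tested. These q-values compare 2 libraries and not the genotypes.

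**Figure D3:**
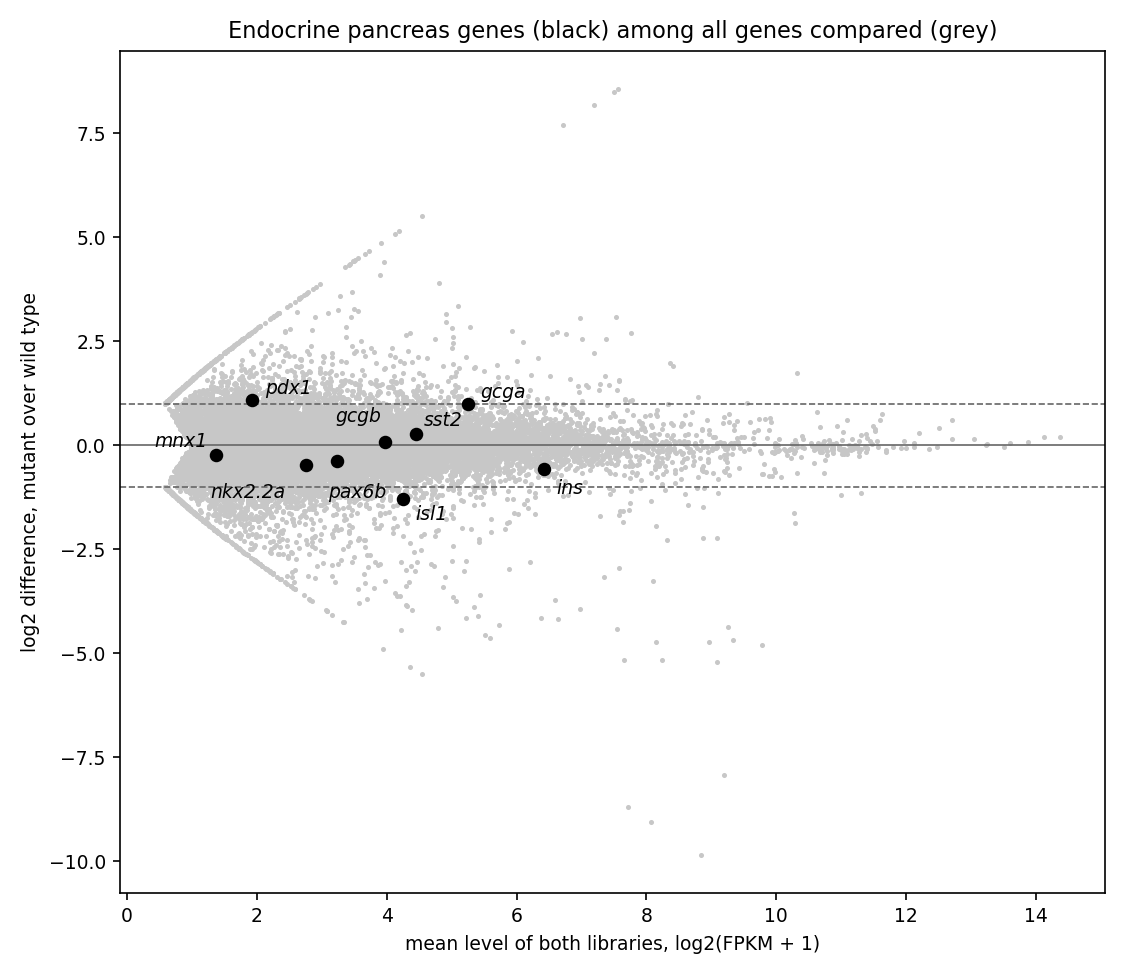
Difference between the mutant and wild-type libraries (y axis, log2 of FPKM plus 1) against mean level (x axis, log2 of mean FPKM plus 1) for the 20256 genes compared (grey) and the 9 members past the floor (black), with dashed lines at the call of 1 either way. Only pdx1 lies above the upper line and only isl1 below the lower line, gcga lies at the upper line at 0.99, and the other members lie between the lines.

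Of 17 genes in the table for other peptide hormones of the islet and gut, 2 were called higher, 4 lower and 11 neither. Over all genes compared, 6.08% were called higher and 7.12% lower. The median difference of the 17 genes was -0.30. With a pseudocount of 5 FPKM 0 of the 17 were called higher and 1 lower, and with a floor of 5 FPKM 1 higher and 1 lower. The somatostatin gene sst1.1, also made in the zebrafish islet, was at 24.2 FPKM in the mutant and 30.1 FPKM in the wild type, a difference of -0.30. The ratio of sst2 to sst1.1 was 0.942 in the mutant and 0.628 in the wild type. The somatostatin family gene sst3, named sst7 in a current symbol table, was at 14.9 FPKM in the mutant and 35.1 FPKM in the wild type, a difference of -1.18. Ghrelin (ghrl), a hunger hormone made in islet and gut cells, was at 6.2 FPKM in the mutant and 2.43 FPKM in the wild type.

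Several peptides known from mammalian beta cells or from gut endocrine cells were at low levels. Urocortin 3 (ucn3l), a peptide of mature beta cells in mammals, was at 3.62 FPKM in the mutant and listed at 0 in the wild type. The amylin gene IAPP, whose peptide mammalian beta cells release with insulin, was listed at 0 in the mutant and at 2.1 FPKM in the wild type. The insulin-like peptide genes insl5a and insl5b, of which the mammalian relative is a gut hormone, were lower. The first was at 1.04 FPKM in the mutant and 4.66 FPKM in the wild type, and the second was listed at 0 in the mutant and at 2.36 FPKM in the wild type. Calls counted for ucn3l, IAPP and insl5b each rest on a listed 0, which can be a failed estimate. The neuropeptide gene adcyap1b, at a locus shared with clul1 and yes1, had the highest level on this list, at 55.0 FPKM in the mutant and 67.4 FPKM in the wild type.

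Other islet transcription factors gave 1 gene called higher and 4 lower among the 34 of 40 past the floor, with a median difference of -0.15. Over all genes compared the shares were 6.08% higher and 7.12% lower. The factor called higher, mnx2b, and mnx2a among those called lower each rest on a listed 0, which can be a failed estimate. With a pseudocount of 5 FPKM 0 of these factors were called higher and 1 lower. The basic helix-loop-helix factor neurod, which drives endocrine differentiation and is also strong in the retina and brain, was at 9.23 FPKM in the mutant and 53.9 FPKM in the wild type, a difference of -2.43. It was the only one of these factors that the authors' deposited table calls significant, with a q-value of 0.0133. The zinc finger factor insm1a, an endocrine and neuronal factor, was at 8.45 FPKM in the mutant and 19.5 FPKM in the wild type, and its duplicate insm1b at 10.9 FPKM in the mutant and 12.95 FPKM in the wild type. The alpha cell factor arxa was at 2.98 FPKM in the mutant and 3.37 FPKM in the wild type, and mafa, a beta cell factor in mammals, at 7.39 FPKM in the mutant and 8.41 FPKM in the wild type. The pancreatic progenitor factor nkx6.1 was at 7.87 FPKM in the mutant and 4.46 FPKM in the wild type. The factors with the highest mean level over both libraries, sox4a and sox11a, both at shared loci, differed by -0.18 and -0.34.

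Markers of other cells moved as follows beside isl1, pax6b and nkx2.2a. Of 22 retina and brain markers past the floor, 19 were below 0, 6 were called lower and 1 higher, with a median of -0.59. Of the 20256 genes compared, 10336 were below 0, 7.12% were called lower and 6.08% higher. The calls of mnx2a and mnx2b on this list rest on a listed 0. With a pseudocount of 5 FPKM 2 of these markers were called lower and 0 higher. The summed level of the 24 on that list was 534 FPKM in the mutant and 822 FPKM in the wild type, and gap43 was listed at 0 in both libraries. The bipolar cell factor vsx1 was at 4.5 FPKM in the mutant and 37.7 FPKM in the wild type, and the synaptic gene snap25b at 45.0 FPKM in the mutant and 108 FPKM in the wild type. The neuronal genes snap25a and stmn2a differed by -0.48 and -0.35. That list shares pax6a, isl2a, isl2b, mnx2a, mnx2b and nkx2.2b with the list of islet factors, and its part in the isl1 level was not tested.

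Genes that mature and store prohormones were mostly within the call. Across the 20256 genes compared, 10336 were below 0, 7.12% were called lower and 6.08% higher. Of 22 genes on this list, 19 were below 0, 3 were called lower and 0 higher, and the median was -0.28. The calls of scg3 and rab3aa stood at the threshold, with differences of -1.02 and -1.01. The count called lower was 2 after centring on the median gene, 1 after scaling on ribosomal protein genes and 0 with a pseudocount of 5 FPKM. The prohormone convertases pcsk1 and pcsk2, which cut proinsulin and proglucagon, were at 7.72 and 6.46 FPKM in the mutant and at 9.19 and 8.44 FPKM in the wild type. Carboxypeptidase E (cpe), which trims the cut hormones, was at 51.8 FPKM in the mutant and 77.3 FPKM in the wild type. The granule protein scg3 was at 28.2 FPKM in the mutant and 58.0 FPKM in the wild type, and scg2b at 44.2 FPKM in the mutant and 51.5 FPKM in the wild type. The zinc transporter slc30a8, which loads insulin granules with zinc, was at 1.03 FPKM in the mutant and 3.41 FPKM in the wild type. Vesicle gene rab3aa was at 9.82 FPKM in the mutant and 20.7 FPKM in the wild type. Neurons express most of these genes too.

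Glucose sensing and insulin secretion genes lay on both sides, with 1 called higher and 2 lower of 16 past the floor and a median of -0.24. The shares over all genes compared were 6.08% higher and 7.12% lower. Glucokinase (gck), the glucose sensor of beta cells and a liver enzyme, was at 6.59 FPKM in the mutant and 0.626 FPKM in the wild type, a difference of 2.22. The glucose transporter gene slc2a1a was at 5.33 FPKM in the mutant and 20.7 FPKM in the wild type. The transporter genes slc2a1b and slc2a2 lay within the call, with differences of -0.33 and -0.34. The calcium channel gene cacna1db was at 0.118 FPKM in the mutant and 8.90 FPKM in the wild type, and a second identifier with this symbol was listed at 0 in both. The authors' deposited table does not mark cacna1db as significant, with a q-value of 0.996. The related gene cacna1da lay within the call, with a difference of -0.73. Both subunits of the ATP-sensitive potassium channel lay within the call, kcnj11 at 9.73 FPKM in the mutant and 7.02 FPKM in the wild type, and abcc8 at 4.44 FPKM in the mutant and 5.21 FPKM in the wild type. The glutamate dehydrogenase genes glud1b and glud1a, both at shared loci, differed by -0.29 and 0.10.

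Receptors of these hormones and their signalling genes gave no call. Of 13 receptor and signalling genes past the floor, 0 were called in either direction, against 13.2% of all genes compared. Their median was 0.00. The insulin receptor genes insra and insrb were at 8.22 and 5.73 FPKM in the mutant and at 8.20 and 5.74 FPKM in the wild type. The glucagon receptor genes gcgra and gcgrb were at 4.22 and 1.88 FPKM in the mutant and at 5.47 and 1.33 FPKM in the wild type. The somatostatin receptor genes SSTR5, sstr1a and sstr3 were at 3.89, 3.12 and 0.241 FPKM in the mutant and at 6.59, 2.27 and 0.943 FPKM in the wild type. The last did not pass the floor. Downstream, pik3r1, a phosphoinositide kinase subunit, differed by -0.20 and the kinase akt2 by 0.02.

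Genes of liver glucose production, which glucagon raises and insulin lowers in vertebrate liver, had a median of 0.16. Of the 15 on this list, 8 were above 0 and 7 below 0. The list had 1 called higher and 1 lower, against 6.08% and 7.12% of all genes compared. The gatekeeper enzyme pck1 was at 352 FPKM in the mutant and 309 FPKM in the wild type. Glucose-6-phosphatase (g6pca.2) was at 319 FPKM in the mutant and 262 FPKM in the wild type. On the other side of 0, fbp1a and fbp1b, both at shared loci, differed by -0.23 and -0.29. The 2 genes past the call are not enzymes of glucose synthesis. They were igfbp1a, which encodes a plasma protein that binds insulin-like growth factors, at 284 FPKM in the mutant and 96.7 FPKM in the wild type, and tat, which encodes a tyrosine-degrading enzyme, at 14 FPKM in the mutant and 38.3 FPKM in the wild type.

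Genes of the acinar cells, which make digestive enzymes around the islets, were lower in the mutant. Of 13 acinar markers past the floor, 11 were called lower and 0 higher, with a median of -1.47 and differences between -2.23 and -0.92. Among all genes compared, 7.12% were called lower and 6.08% higher. Like the other lists, this one was chosen with earlier results of these data known, and 14 of its 19 symbols were found. The elastase ela2 had the difference of -2.23. The elastase ela2l and the phospholipase pla2g1b, both at shared loci, and the amylase amy2a differed by -2.22, -2.19 and -2.0. The protease precursor ctrb1, also at a shared locus, had the highest level and differed by -1.19. The lowest level of the list was that of the acinar factor rbpjl, at 0.502 FPKM in the mutant and 0.839 FPKM in the wild type. The ratio of ins to ela2 was 0.358 in the mutant library and 0.113 in the wild-type library, and that of gcga to ela2 was 0.261 in the mutant and 0.0272 in the wild type. Both ratios rest on ela2, which had the largest difference of the list and was 4.73-fold lower. At the other end of the range, cel.1 was 1.90-fold lower. With 1 library a genotype, the difference between acinar and endocrine genes could not be tested.

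Duct and gut markers completed the cell types near the islet. All genes compared had 6.08% called higher and 7.12% lower. Duct markers had 2 called higher and 0 lower of 9, with a median of 0.23. They had 1 called higher with a pseudocount of 5 FPKM or without shared loci. The 2 were krt18, a keratin of simple epithelia, at 292 FPKM in the mutant and 138 FPKM in the wild type, and clcn1b, whose human relative encodes a chloride channel of skeletal muscle, at 6.42 FPKM in the mutant and 1.26 FPKM in the wild type, at a locus shared with a ribosomal RNA gene. The duct marker anxa4 was at 115 FPKM in the mutant and 126 FPKM in the wild type. Enteroendocrine and enterocyte markers had 1 called lower and 0 higher of 7 past the floor, with a median of -0.42. The called gene was fabp2, an enterocyte fatty acid binding protein, at 288 FPKM in the mutant and 591 FPKM in the wild type, and its call was lost after scaling on ribosomal protein genes. The lipid transport genes apoa1b and fabp1b.1, the second at a shared locus, differed by 0.29 and -0.42. Beside pdx1, the gut factor cdx1b was at 3.08 FPKM in the mutant and 2.40 FPKM in the wild type. The part of gut cells in the pdx1 level was not tested.

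**Figure D4:**
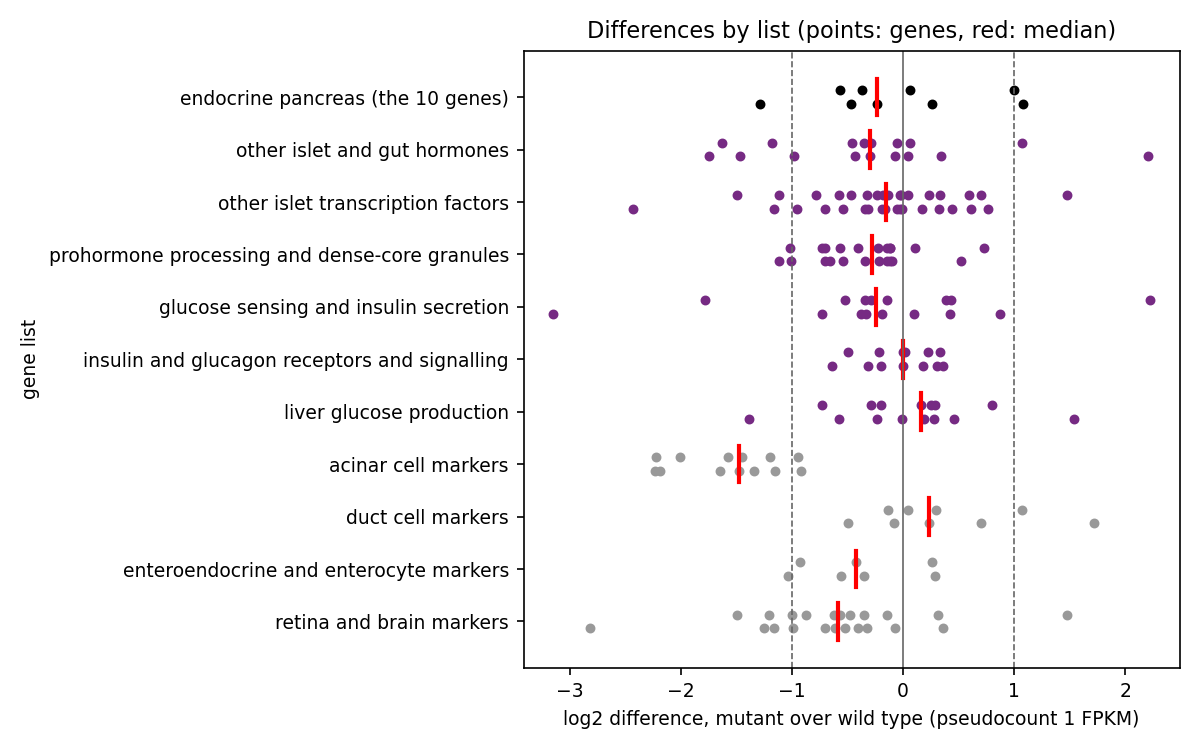
Difference of each gene past the floor (points, x axis, log2 of mutant over wild type with a pseudocount of 1 FPKM) for the 10 endocrine genes (black), lists of islet function (purple) and lists of cell type markers (grey), with each list's median as a red bar and dashed lines at the call. The acinar list has a median of -1.47 and lies wholly left of 0, the receptor list lies within the dashed lines, and the endocrine genes lie between -1.29 and 1.08 with a median of -0.24.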

How the data were processed

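RNA of pooled whole larvae was extracted with a Qiagen kit and made into Illumina libraries, as the labels' protocols state. CASAVA, Bowtie and build Zv9 are named, per the submitters' processing notes, with no versions or order. The deposited table holds 1 level per gene and library. The authors' deposited levels were read as FPKM, as the column layout implies, since the header does not name their unit, and no source used here gives the program behind them. The p-value and q-value columns are the authors' own test between the 2 libraries, per the file headers. Library codes ending in WT and MT were matched to the label titles. Counts were not recovered. Levels above 0 in both libraries and under 0.5 FPKM were held by 510 genes. For 206 of them, mutant level divided by wild-type level fell in a chosen window of 0.7 to 0.83. The median inside that window was 0.765. Because the window limits this value, it gives no estimate of relative depth.

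The first identifier column does not pair with the symbols: 0 of its 21937 known identifiers carried the symbol on their line. In the second column, which was used, all 10 members were found and 7 carried the same current symbol. Starts were written 1-based, since 3 genes have loci that begin at 0. Overlapping genes share a locus, as 3 members do. The coordinates given for gcga, gcgb and sst2 are therefore those of the shared locus and not of the gene alone. The libraries are not stated to keep strand.

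The 10 members and the 10 other lists were chosen with earlier results of these data known. Of 205 symbols on those lists 171 were found, and of several identifiers with 1 symbol the one with the highest level was used. Named genes are the members and, per list, up to 4 called genes with the largest differences and the 2 highest levels. Further genes (sst3, ghrl, insm1a, insm1b, arxa, mafa, nkx6.1, isl2a, isl2b, pcsk1, pcsk2, kcnj11, abcc8, slc2a1b, slc2a2, cacna1da, insra, insrb, gcgra, gcgrb, SSTR5, sstr1a, sstr3, fbp1a, fbp1b, cel.1, cdx1b, rbpjl, gap43) were named for their role, level or difference after their values were seen. Alternatives were other pseudocounts, scalings and floors, and leaving out shared loci. No test was run. Computation used Python 3.11.15 with pandas 2.3.3, and the counting step was tested on simulated data.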

Additional observations from a re-analysis of the deposited data

How the results depend on the processing

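No member above 0 changed sign under the alternatives that kept it, but most of them could not have changed a sign. Another pseudocount keeps the sign, and a floor or leaving out shared loci does not alter a kept gene's difference. The scalings were small, the largest being -0.08 log2 units on ribosomal protein genes, so only a difference near 0 could have changed sign. Leaving out shared loci drops gcga, gcgb and sst2, and a floor of 5 FPKM drops pdx1 and mnx1. The difference of ins less that of gcga was -1.56 and lay between -1.60 and -1.44 over the 7 alternatives that keep gcga. Library scaling nearly cancels in this value, so only the pseudocounts could move it by much. The count of members called higher, 1 as reported, was 2 with a pseudocount of 0.1, after centring on the median gene and after scaling on ribosomal protein genes, where gcga passed at 1.02, 1.01 and 1.07. It was 0 with a pseudocount of 5, where pdx1 was at 0.51, and 0 with a floor of 5 FPKM, where pdx1 is absent. Over all genes, 1866 were called higher and 2219 lower with a pseudocount of 0.1, 296 higher and 361 lower with a pseudocount of 5, and 612 higher and 721 lower with a floor of 5 FPKM. The other lists together held 171 genes in the table, not all of them past the floor. Of these, 7 were called higher and 30 lower, or 3 higher and 18 lower with a pseudocount of 5. Over all genes compared, 6.08% were called higher and 7.12% lower as reported. The acinar list alone gave 11 of the 30 called lower, and 10 of the 18. No scaling moved the median of all genes by more than 0.1. No paired analysis was possible because each genotype has 1 library, and for the same reason no replicate could be left out. Without the table's fragment numbers no counting interval was computed, so the low values of pdx1 and mnx1 carry an unknown counting error.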

Other observations

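Relatives of the islet factors that were on no list are given here as values, chosen after their values were seen. The neurogenic factor neurod4 was at 6.37 FPKM in the mutant library and 27.5 FPKM in the wild-type library, a difference of -1.95. Its relatives neurod6a, at a locus shared with ccdc129, and neurod2 differed by -1.84 and -1.04, and neurod6b by -0.74. The pax6-related gene pax6l, named pax10 in a current symbol table, was at 1.52 FPKM in the mutant and 5.89 FPKM in the wild type.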
